A study of Triticum aestivum with 10 samples.

Results

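A set of 92 probe sets of the Affymetrix wheat array was low in young wheat grain and well above the background of the array at 500 degree days (DD). A degree day adds up temperature over days, so that grains are staged by accumulated warmth rather than by calendar age. The probe sets were chosen by their values: a log2 value under 5 on each of 7 arrays of 100 to 300 DD, and at least 7 on both arrays of 500 DD. They are 92 of the 61179 probe sets left after the Affymetrix controls were set aside. In all, 98 probe sets met the thresholds, which is 0.160% of the array and 0.249% of the 39433 probe sets that were under 5 on the 7 arrays. Of these, 3 probe sets of Em, 2 of EM and 1 of Rab15, late embryogenesis genes, were left out of the set. The choice fixes that these probe sets are low before 500 DD and high at 500 DD, so these levels are described with no test.

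The grains came from hexaploid bread wheat, Triticum aestivum cultivar Récital, grown untreated in a greenhouse, and each sample held endosperm and embryo together. The stages were 100, 200 and 250 DD, called cell division by the study, and 300 and 500 DD, called filling, with 2 arrays per stage from separate harvests. The labels gave replicate 1 as 130, 185, 230, 290 and 490 DD and replicate 2 as 100, 200, 250, 300 and 500 DD. Matched to the sampling times in the study's methods, replicate 1 is read here as the later harvest year and replicate 2 as the earlier one, an inference because the methods do not number the replicates. Harvest and sampling time therefore cannot be told apart within a stage. A grain sample mixes tissues, and more cells of a type and more RNA per cell cannot be told apart.

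In cereal grain, starch and storage proteins fill the endosperm first, and the embryo then goes through maturation, when it prepares to survive drying. Abscisic acid drives much of that program. It turns on late embryogenesis abundant proteins such as Em, dehydrins such as Rab15, and the embryo lectin wheat germ agglutinin, which protect or store for the dry seed. The genes behind most of the 92 probe sets are not named by the annotation, so no role in that program is given to them here.

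The array labelled 100 DD replicate 2 stood apart from its label. It was left out of the choice and of the main test, but entered an alternative fit with all 10 arrays. Over all probe sets its values correlated at 0.994 with 500 DD replicate 2 and at 0.986 with 500 DD replicate 1, against 0.859 with 100 DD replicate 1 and 0.913 to 0.952 with the arrays of 200 to 300 DD. A list of starchy endosperm markers (14 genes, 23 probe sets: gliadins, glutenins, thionins, amylase inhibitors and starch synthesis genes) had a summed signal of 11.62 on the log2 scale on 100 DD replicate 1 and of 18.22 to 18.83 on each other array. The 27 probe sets of the poly(A) RNA added as a labelling control had a mean log2 value of 7.25 to 9.74 on 8 arrays, but only 5.13 on 300 DD replicate 1 and 4.39 on 200 DD replicate 1.

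At 500 DD the 92 probe sets spread over a wide range of values. Their values ran from 7.003 to 13.21 with a median of 8.38 on replicate 1, and from 7.03 to 13.10 with a median of 8.48 on replicate 2. The median of their 500 DD means was 8.29, and the median SD of a probe set between both arrays was 0.33. By the mean of both arrays, 36 probe sets (39.1%) lay between 7 and 8, 22 (23.9%) between 8 and 9, 20 (21.7%) between 9 and 10 and 14 above 10. Of the 9222 probe sets of the whole array that were at least 7 on both 500 DD arrays (15.1%), 28.6% lay between 7 and 8. None of the 92 reached 14, while 80 of the 9222 did. A value of one probe set is not set against that of another as an amount of transcript, because it also depends on the probes.

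Up to 250 DD most of the same probe sets lay near background, and by 300 DD part of them were above it. Their median was 2.64 on 100 DD replicate 1, 2.63 and 2.65 at 200 DD, 2.70 and 2.72 at 250 DD, and 2.99 and 3.37 at 300 DD. On each of these arrays the median over all probe sets was between 2.94 and 3.03, so the set was below it up to 250 DD and, on 300 DD replicate 2, above it. A value of 4 or more was seen in 2 to 5 of the 92 on an array of 100 to 250 DD and in 27 on each 300 DD array, and 40 reached it on some array before 500 DD. Of the 92, 33 were under 3 on all 7 arrays, and 26 stayed within 0.25 over the 7 arrays. Low values were common: on each of the 7 arrays, 29987 to 31563 of all 61179 probe sets were under 3. Shares over all 7 arrays together were not counted for the whole array, so both counts only describe the set. The lower of both 500 DD arrays exceeded the highest earlier array by 2.16 to 10.56, with a median of 4.67. For values this close to background such a difference is not a fold change of the transcript.

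**Figure D1:**
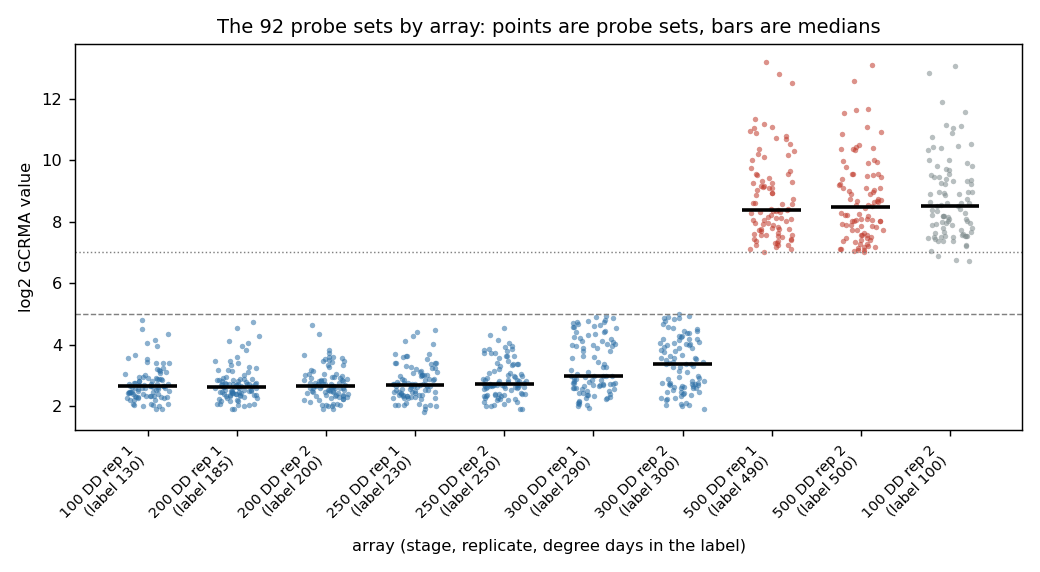
Log2 GCRMA value (vertical axis) of each of the 92 probe sets on each array (horizontal axis, with the degree days in the label). Points are probe sets, bars are medians, and the dashed and dotted lines are the thresholds of 5 and 7. The medians stay between 2.63 and 3.37 up to 300 DD and are 8.38 and 8.48 at 500 DD, while the array labelled 100 DD replicate 2, drawn last in grey, has a median of 8.51.

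More probe sets crossed the same thresholds between 300 and 500 DD than between the middle stages. Counted as under 5 on all arrays before a stage and at least 7 on both arrays of it, 334 probe sets came on at 200 DD, 1 at 250 DD, 9 at 300 DD and 98 at 500 DD. These counts rest on unequal numbers of earlier arrays, 1, 3, 5 and 7, and on stages that lie at unequal distances, so they give no rate.

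The probe set with the highest mean, Ta.25025.2.S1_at, carries the design number of the 3 Em probe sets but has no gene symbol of its own, and was kept for that reason. It read 13.21 and 13.10 at 500 DD and stayed between 2.41 and 2.54 on the 7 earlier arrays, 300 DD included. The 3 annotated Em probe sets, for a protein that binds water in the dry embryo, read between 13.50 and 14.52 at 500 DD. One of them, Ta.25025.1.S1_at, read 4.48 and 3.14 at 300 DD, so probe sets of the same design number were not equally flat at 300 DD.

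Of the other 9 probe sets with the highest means, some were about as flat as Ta.25025.2.S1_at before 500 DD. Ta.30758.1.S1_at read 2.35 to 2.44 on the 7 arrays before 500 DD, then 11.17 and 10.34. Ta.6136.1.S1_at read 2.44 to 2.69 before 500 DD, then 11.34 and 11.08. A gap between the earlier arrays and the 500 DD arrays was required by the choice.

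Ta.13739.1.S1_at read 2.28 to 2.38 at 100 to 250 DD, 3.29 and 3.58 at 300 DD, and 12.79 and 12.58 at 500 DD. Ta.6174.1.S1_at read 2.82 to 2.90 at 100 to 250 DD, 4.71 and 3.97 at 300 DD, and 12.52 and 11.66 at 500 DD. Both 300 DD arrays were thus above all earlier ones in these probe sets. In Ta.27950.1.S1_at the same order came with a higher starting value: it read 3.50 to 3.74 at 100 to 250 DD, 3.90 and 4.19 at 300 DD, and 10.97 and 10.91 at 500 DD.

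Ta.27399.3.S1_at read 2.65 to 2.85 at 100 to 250 DD, 3.05 and 2.81 at 300 DD, and 11.08 and 11.54 at 500 DD. Its overlapping partner Ta.27399.3.S1_x_at read 2.51 to 2.66, then 2.71 and 3.14, then 11.04 and 10.39, so the pair differed in which 500 DD array was higher. An ending in x marks probes that can also bind other transcripts. Ta.6213.1.S1_at read 2.92 to 3.26 before 500 DD and 10.73 and 11.62 at 500 DD.

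**Figure D2:**
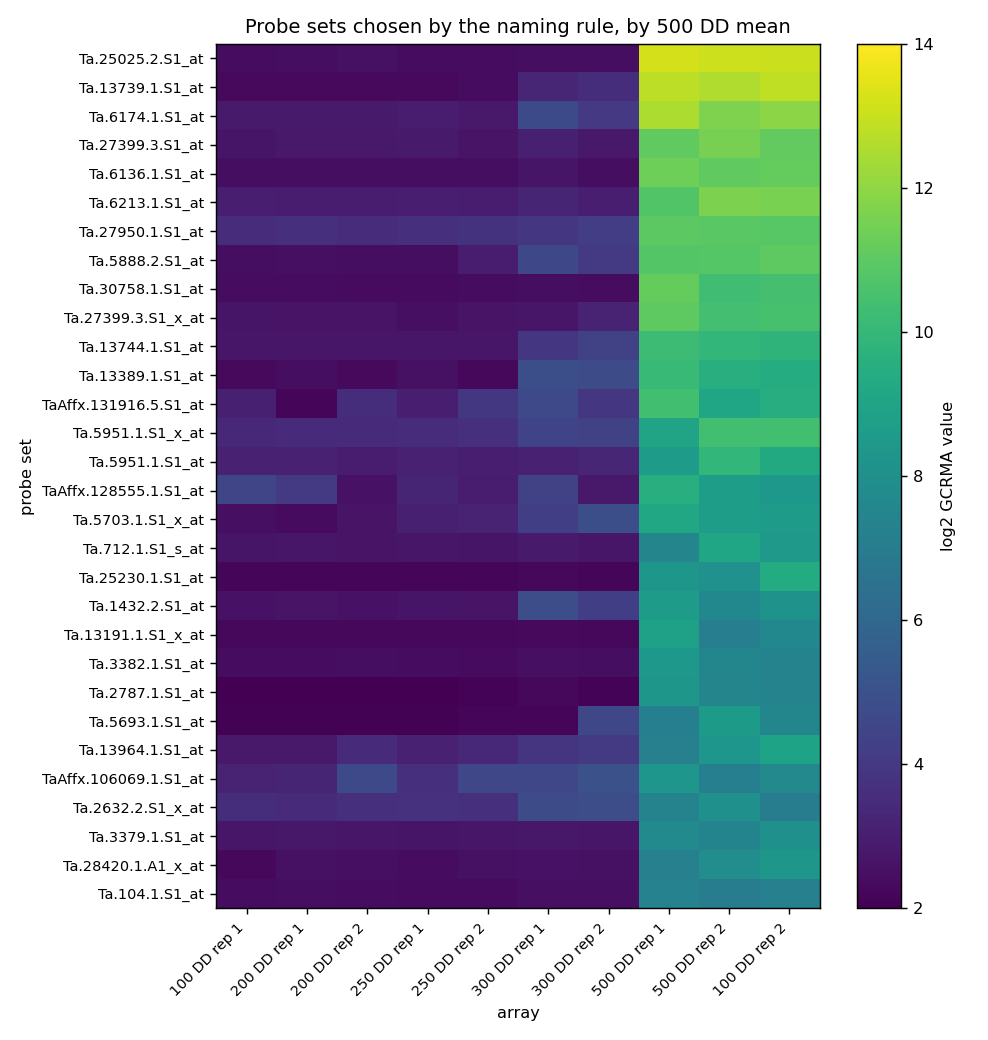
Log2 GCRMA values (colour scale) of 30 probe sets, chosen by level at 500 DD, by difference between the 500 DD arrays, by margin at 300 DD, by position on the array labelled 100 DD replicate 2 or by having a gene symbol. Each line is a probe set, in order of its 500 DD mean, and each column is an array, with 100 DD replicate 2 last. Values stay under 5 up to 300 DD, and the last column resembles the 500 DD columns.

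Of the 92 probe sets, 3 (3.26%) were paired with a gene symbol, against 1273 (2.08%) of all probe sets. These symbols are locus numbers, and no function is given to them here. LOC542888 was measured by Ta.2787.1.S1_at, which read 2.02 to 2.24 on the 7 earlier arrays and 8.36 and 7.48 at 500 DD. LOC542794 was measured by Ta.3379.1.S1_at, which read 2.67 to 2.75 on the earlier arrays and 7.76 and 7.41 at 500 DD. LOC543195 was measured by Ta.104.1.S1_at, which read 2.37 to 2.50 on the earlier arrays and 7.31 and 7.07 at 500 DD. All 3 were flat through 300 DD and higher on 500 DD replicate 1 than on replicate 2.

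LOC542888 has another probe set, Ta.13255.1.S1_at, which was not silent in young grain. It read 5.28 on 100 DD replicate 1, 5.57 and 6.07 at 200 DD, 6.54 and 6.40 at 250 DD, 8.15 and 6.36 at 300 DD, and 10.60 and 10.64 at 500 DD. Both probe sets paired with this locus thus had their highest values at 500 DD, and only one of them stayed near background before it. The wheat genome holds near-identical copies of most genes, and which copy each probe set reads was not tested.

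The same question can be asked of every probe set whose design number is shared, since such probe sets were built from similar transcripts. The 92 fell into 78 design numbers, and 9 of these numbers held 23 of the probe sets. All 4 probe sets of Ta.13396 had 500 DD means between 7.78 and 9.31 and 300 DD means of 2.04 to 2.38. The 3 of the set from Ta.5703 had 500 DD means between 8.91 and 9.09 and the higher 300 DD means of 4.53 to 4.81. Probe sets of one number can bind the same transcripts, so they do not count as separate genes.

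Besides the Em probe sets, 40 further probe sets shared a design number with one of the 92, over 23 numbers. Of these 40, 13 (32.5%) were at least 7 on both 500 DD arrays, against 15.1% of all probe sets. All 13 had missed the choice through the ceiling of 5: 6 of them reached 5 on an array of 100 to 250 DD, and 7 at 300 DD for the first time. Another 14 were under 5 on all 9 arrays, against 63.2% of all probe sets, and 13 lay between. On both 500 DD arrays, 25 of the 40 were higher than on both 300 DD arrays, which held for 16.0% of all probe sets.

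Ta.14247.1.S1_at was one of the 7, with 2.16 to 3.32 at 100 to 250 DD, 5.35 and 6.04 at 300 DD and 11.02 and 10.89 at 500 DD. Ta.9564.1.S1_at was another, with 1.90 to 2.41 at 100 to 250 DD, 5.18 and 5.02 at 300 DD and 10.26 and 10.56 at 500 DD. In both, the 300 DD arrays were above every earlier array. Ta.5888.1.S1_s_at went further, with 2.73 on 100 DD replicate 1, 5.99 and 7.79 at 200 DD, 6.71 and 8.98 at 250 DD, 10.78 and 10.80 at 300 DD and 12.83 and 13.98 at 500 DD. The 6 further probe sets of TaAffx.131916, by contrast, read 2.44 to 4.08 at 500 DD, where TaAffx.131916.5.S1_at, one of the 92, read 10.38 and 9.05. These probe sets are named after their values were seen.

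**Figure D3:**
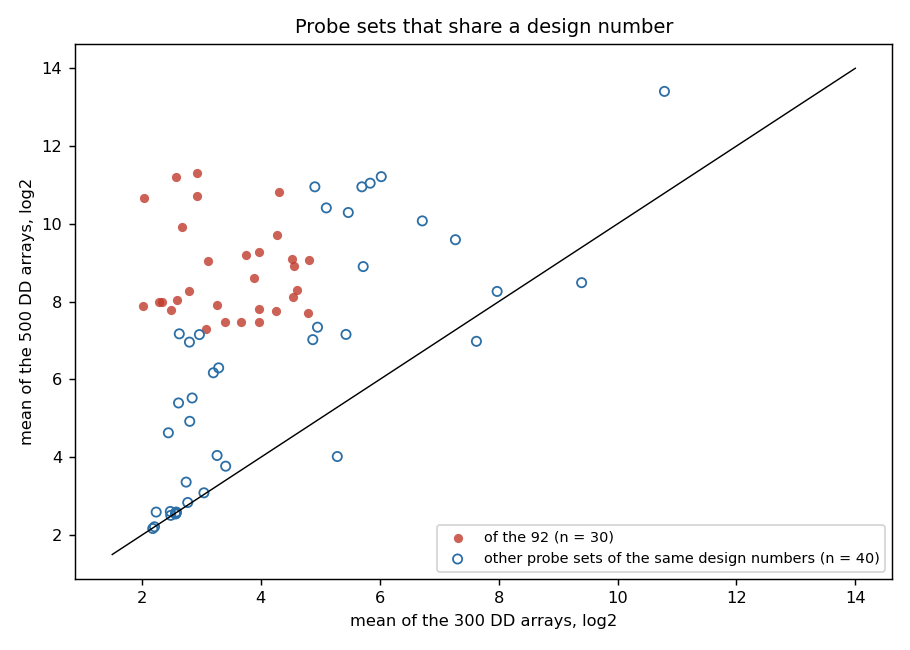
Mean log2 value of both 300 DD arrays (horizontal axis) against that of both 500 DD arrays (vertical axis) for 30 of the 92 probe sets that share a design number with other probe sets (filled) and for those 40 other probe sets (open). The line marks equal values. The open points run from the lower left corner, where 14 were under 5 on all 9 arrays, to 13 that were at least 7 on both 500 DD arrays.

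The 500 DD arrays differed more in the 92 probe sets than in others, with a median difference without sign of 0.472 against 0.277 over the 9222 probe sets at least 7 on both. Replicate 2 was lower than replicate 1 for 56 (60.9%) and higher for 36, and it was lower for 54.5% of the 9222. The median difference, replicate 2 minus replicate 1, was -0.18 on the log2 scale, with an SD of 0.68 over probe sets, and the range was -1.74 to 1.65. Over the 9222 the median was -0.0455 and the SD 0.46, so the whole array leaned the same way, by less. A difference of 1 or more was seen in 12 of the 92 (13.0%), 8 higher and 4 lower in replicate 2, against 345 of the 9222 probe sets (3.74%) that were at least 7 on both arrays. With 1 array per harvest there is no replicate within a harvest, so no difference of a single probe set was tested.

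By band of level, the share 1 or more apart was above that of the 9222 in the bands up to 10, on small counts. Among probe sets with a mean between 7 and 8, 8.33% of the set (3 of 36) and 2.84% of all were 1 or more apart. Between 8 and 9 these shares were 27.3% (6 of 22) and 5.13%, and between 9 and 10 they were 15.0% (3 of 20) and 4.27%. Above 10, none of the 14 of the set was 1 or more apart, against 2.81% of all, and 14 are too few to tell these shares apart.

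The largest difference toward replicate 1 was in Ta.13191.1.S1_x_at, at 8.87 on replicate 1 and 7.13 on replicate 2 of 500 DD. TaAffx.131916.5.S1_at followed with 10.38 and 9.05, and TaAffx.106069.1.S1_at with 8.31 and 7.16. Ta.1432.2.S1_at completed the 4 that were lower in replicate 2 by 1 or more, with 8.62 and 7.62. The 3 probe sets of Ta.5734 were all lower in replicate 2 as well, by 0.53 to 0.86.

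The largest difference toward replicate 2 was in Ta.712.1.S1_s_at, at 7.45 and 9.10. Its partner outside the set, Ta.712.1.S1_x_at, read 5.47 and 5.58 and so did not repeat the size of that difference. Ta.5951.1.S1_at read 8.57 and 9.95, and Ta.5951.1.S1_x_at of the same design number read 9.02 and 10.36. Ta.5693.1.S1_at read 7.18 and 8.56. Both Ta.5951 probe sets thus shared the direction and about the size of the difference.

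**Figure D4:**
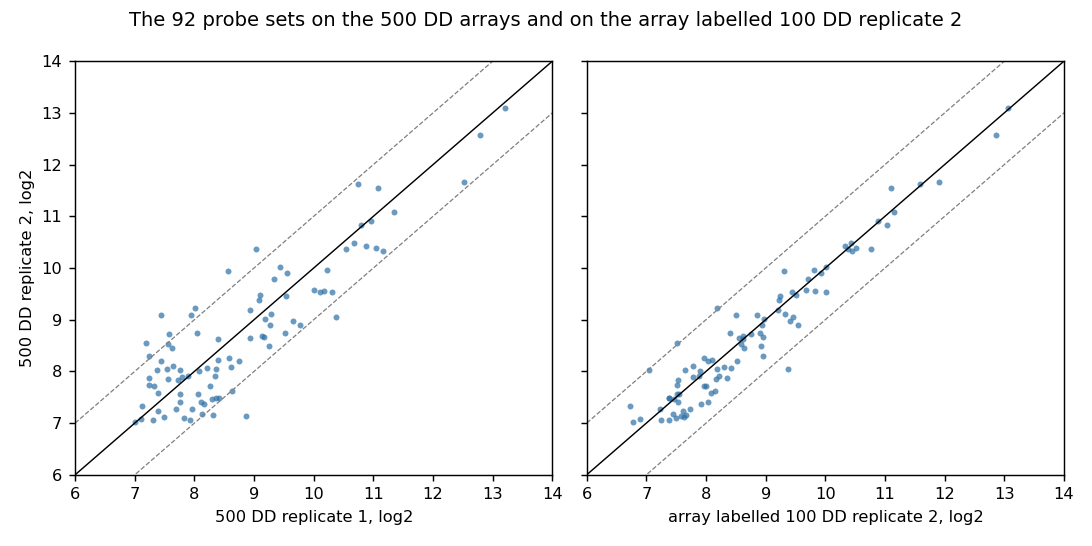
Log2 value on 500 DD replicate 2 (vertical axes) against 500 DD replicate 1 (left, horizontal axis) and against the array labelled 100 DD replicate 2 (right, horizontal axis), 1 point per probe set of the 92. Solid lines mark equal values and dashed lines a difference of 1. On the left 12 points lie 1 or more from the solid line, and on the right 3 do.

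The array labelled 100 DD replicate 2 served as a check because the choice did not use it. All 92 probe sets were at 5 or more on it, against 1.57% of the 39433 probe sets under 5 on the 7 other arrays before 500 DD. At 7 or more were 89 of the 92, against 0.304% (120 probe sets, the 89 included). The median of the 92 was 8.51 there, against 2.64 on 100 DD replicate 1, and the lowest value was 6.73. On this array the set therefore read as it did at 500 DD and not as on the other 100 DD array.

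Across the 92 probe sets, the values of this array correlated at 0.961 with 500 DD replicate 2 and at 0.906 with 500 DD replicate 1, while the 500 DD arrays correlated at 0.876 with each other. All these correlations are over 92 probe sets that share their arrays and their selection, and they are a description. The array was nearer to 500 DD replicate 2 for 60 probe sets and nearer to replicate 1 for 32, and it lay between both for 41. Its median distance from 500 DD replicate 2, taken without sign, was 0.22.

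Named by rule were the 3 probe sets furthest above and the 3 furthest below their 500 DD mean. The largest distances on this array were 1.19 in Ta.13964.1.S1_at and -0.74 in TaAffx.128555.1.S1_at. Ta.13964.1.S1_at read 8.96 there, against 7.24 and 8.29 at 500 DD, and Ta.25230.1.S1_at read 9.37 against 8.37 and 8.05. Ta.28420.1.A1_x_at read 8.34 against 7.23 and 7.87. In these 3 the array was above both 500 DD arrays.

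On the low side, TaAffx.128555.1.S1_at read 8.39 on it against 9.52 and 8.75 at 500 DD. Ta.2632.2.S1_x_at read 7.04 against 7.37 and 8.03, and Ta.3382.1.S1_at read 7.39 against 8.41 and 7.49. In these 3 the array was below both 500 DD arrays and far above the earlier arrays.

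First signs appeared at 300 DD. Both 300 DD arrays exceeded every array of 100 to 250 DD in 48 of the 92 (52.2%), against 9.26% of all probe sets and 9.83% of the 39433 that were under 5 on the 7 arrays. By 1 or more on the log2 scale they did so in 8 (8.70%). That margin was met by 0.360% of all probe sets and by 22 of the 39433 (0.0558%), the 8 included. The ceiling of the choice held 300 DD under 5 and so limited how large the margin could be.

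The widest margin was in Ta.13389.1.S1_at. It read 2.29 on 100 DD replicate 1, 2.44 and 2.28 at 200 DD, 2.53 and 2.28 at 250 DD, 4.90 and 4.76 at 300 DD, and 10.10 and 9.53 at 500 DD. No array of 100 to 250 DD came within 2 of the 300 DD arrays, and both 500 DD arrays were higher again, as the choice required.

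Ta.1432.2.S1_at read 2.61 to 2.69 at 100 to 250 DD and 4.85 and 4.23 at 300 DD. Ta.13744.1.S1_at read 2.72 to 2.74 and then 3.90 and 4.36. These 2 were flat until 250 DD. Ta.5703.1.S1_x_at was slightly higher at 250 DD than before, though near background. It read 2.36 to 2.64 at 100 and 200 DD, 3.06 and 3.14 at 250 DD and 4.24 and 4.88 at 300 DD. From 100 DD replicate 1 to 250 DD, Ta.5703.1.S1_at went from 2.45 to 3.61 and 3.72. Ta.5703.1.S1_a_at, with 4.15 and then 3.42 and 4.15, was not higher at 250 DD.

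Ta.5888.2.S1_at read 2.45 to 2.98 at 100 to 250 DD and 4.59 and 4.02 at 300 DD. Ta.2632.2.S1_x_at read 3.48 to 3.69 and then 4.75 and 4.85. Ta.5707.1.S1_at, named because it completed these 8 after its values were seen, read 1.91 to 2.76 and then 4.78 and 3.80. With Ta.6174.1.S1_at above, the 8 came from 8 design numbers.

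**Figure D5:**
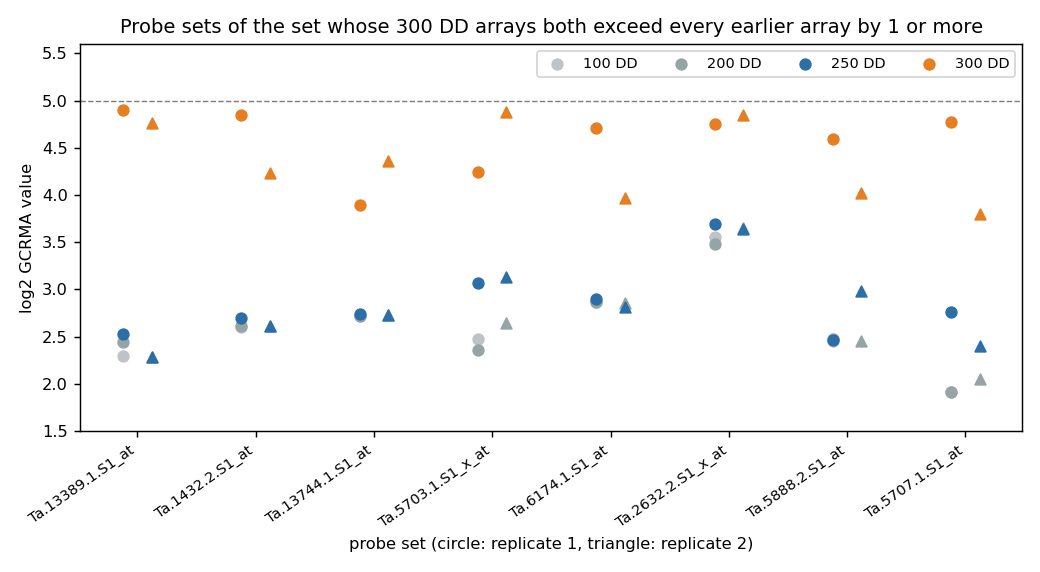
Log2 GCRMA values (vertical axis) of the 8 probe sets (horizontal axis) whose 300 DD arrays both exceeded every earlier array by 1 or more. Circles are replicate 1, triangles replicate 2, colours are stages, and the dashed line is the ceiling of 5. The 300 DD points lie between 3.80 and 4.90, above all points of 100 to 250 DD of the same probe set.

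The test of 300 DD against 250 DD was made with limma over 24727 probe sets and 9 arrays. The choice held both stages to the same ceiling, and with medians of 2.70 and 2.72 at 250 DD most of the 92 had little room to be lower at 300 DD, so a count of 0 lower is not a result. Of the 92, 1 passed an adjusted p of 0.05 as higher at 300 DD, and 0 passed as lower. Over all probe sets 23 (0.0930%) passed as higher and 3 (0.0121%) as lower. The probe set that passed was Ta.13389.1.S1_at, higher by 2.42 (SE 0.26, limma, adjusted p = 0.0460), with both 300 DD arrays above both 250 DD arrays. This call rested on single arrays: the limma adjusted p was 0.146 without 200 DD replicate 1, 0.147 without 200 DD replicate 2, 0.296 and 0.202 without replicate 1 or 2 of 250 DD, 0.232 and 0.401 without replicate 1 or 2 of 300 DD, and 0.0904 and 0.0898 without replicate 1 or 2 of 500 DD.

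The other 7 of the 8 did not pass over all probe sets. Ta.1432.2.S1_at differed by 1.89 (SE 0.37, limma, adjusted p = 0.277) and Ta.13744.1.S1_at by 1.40 (SE 0.24, limma, adjusted p = 0.184). The remaining 5 had differences of 1.14 to 1.71 and limma adjusted p-values of 0.209 to 0.448. A p that misses the threshold with so few arrays does not show that these probe sets did not change. Set against the mean of 200 and 250 DD instead, 4 passed as higher, adding Ta.13744.1.S1_at, Ta.5703.1.S1_x_at and Ta.5888.2.S1_at at limma adjusted p-values of 0.0496, 0.0486 and 0.0475. Calls were more frequent over the whole array as well in that contrast, 103 higher (0.417%) and 51 lower (0.206%).

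At an unadjusted limma p under 0.05, 21 of the 92 were higher at 300 DD and 0 were lower, against 2.53% and 2.38% of all probe sets tested. The difference was above 0 in 89 of the 92, against 43.4% of all, and its median was 0.40, against -0.05 over all. Since the 92 had little room to fall and 52 of them entered the fit through their 500 DD values alone, these counts and their direction describe the set and are no support for it.

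The 300 DD arrays shared part of the probe sets with a value of 4 or more. A value of 4 or more was seen on both arrays for 16 of the 92, on replicate 1 alone for 11, on replicate 2 alone for 11, and on neither for 54. Of the 39433 probe sets under 5 on the 7 arrays, these shares were 2.67% for both, 1.91% for replicate 1 alone and 1.38% for replicate 2 alone. Part of the probe sets was thus shared there as well. Every earlier array was exceeded by 1 or more on replicate 1 for 11 probe sets and on replicate 2 for 16, against 0.162% and 0.281% of the 39433. Replicate 2 was lower than replicate 1 in 59 of the 92 (64.1%), against 83.6% of the 39433, with a median difference of -0.03. The 300 DD arrays were 1 or more apart in 9 (9.78%), 7 of them higher and 2 lower in replicate 2, against 1.21% of the 39433, 0.839% higher and 0.373% lower.

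Ta.5693.1.S1_at read 2.16 on replicate 1 and 4.57 on replicate 2 at 300 DD. Ta.14056.1.S1_x_at read 2.85 and 4.91, and Ta.5764.1.S1_at read 2.92 and 4.87. These 3, named after their values were seen, were also higher in replicate 2 at 500 DD, where Ta.14056.1.S1_x_at read 8.01 and 9.22 and Ta.5764.1.S1_at read 7.57 and 8.72. TaAffx.128555.1.S1_at went the other way, with 4.32 and 2.82 at 300 DD and 9.52 and 8.75 at 500 DD.

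Of the 9 probe sets that were 1 or more apart at 300 DD, 7 had a difference of the same direction at 500 DD. Across the 92, the difference between replicates at 300 DD correlated at 0.300 with that at 500 DD, and across the 9222 probe sets at least 7 at 500 DD at 0.313. Both are descriptions over probe sets that share the same 4 arrays. The set was thus near the rest of the array in this respect.

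Probe sets with a 300 DD mean of 4 or more, 24 of the 92, had a median 500 DD mean of 8.85, and the others of 8.04. The 26 that stayed within 0.25 over the 7 earlier arrays had a median of 8.24 and a range of 7.19 to 13.16. Flat values near background to 300 DD were thus found at low and at high values of 500 DD.

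Embryo markers moved over the same interval. The list (6 genes, 11 probe sets: Em, EM, Rab15, LEA1, COR410 and the agglutinin WGA2) had a summed signal on the log2 scale of 6.53 to 10.47 on the arrays of 100 to 250 DD, 11.28 and 11.48 at 300 DD, 16.64 on both 500 DD arrays and 16.63 on the array labelled 100 DD replicate 2. Of its 11 probe sets, 10 were at 4 or more at 500 DD, and COR410, a dehydrin, stayed at 2.96 to 3.54 on all arrays. The 6 probe sets that met the thresholds but were left out are on this list and read 9.86 to 14.72 at 500 DD. From 200 to 300 DD this sum was mostly LEA1. Its probe set read 4.98 on 100 DD replicate 1, 8.52 to 10.40 at 200 and 250 DD and 11.02 and 11.29 at 300 DD. Without it, the other 10 probe sets summed to 5.93 to 6.15 at 100 to 250 DD, 8.67 and 8.50 at 300 DD and 16.58 and 16.57 at 500 DD. The part of embryo growth in the levels of the 92 probe sets was not tested.

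At 300 DD, 3 of the 10 embryo probe sets tested passed as higher than at 250 DD. WGA2, the wheat germ agglutinin, read 2.31 and 3.30 at 250 DD and 6.79 and 7.40 at 300 DD (limma, difference 4.29, SE 0.46, adjusted p = 0.0460). A Rab15 probe set, Ta.2704.1.S1_x_at, read 3.26 and 3.02 at 250 DD and 7.05 and 6.37 at 300 DD (limma, difference 3.57, SE 0.29, adjusted p = 0.0216). Like the call of Ta.13389.1.S1_at, these rested on single arrays: with each of the 8 arrays from 200 to 500 DD removed in turn, the limma adjusted p became 0.0764 to 0.401 for WGA2, 0.0804 to 0.154 for this Rab15 probe set and 0.0846 to 0.255 for Ta.2704.1.S1_at, the other Rab15 probe set that passed. The 300 DD values lay above the ceiling of 5, so WGA2 and 2 of the 3 Rab15 probe sets did not meet the thresholds of the set.

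The marker lists of other tissues took other courses. In the aleurone list (2 genes, 4 probe sets), PER1, a peroxiredoxin, and LTP3, a lipid transfer protein, differed in course, so their sum is not given. One PER1 probe set read 2.18 on 100 DD replicate 1, 12.25 and 12.35 at 250 DD, 13.04 and 12.98 at 300 DD and 14.12 and 13.51 at 500 DD. One LTP3 probe set read 12.62 and 12.28 at 300 DD and 10.98 and 10.78 at 500 DD. At 500 DD this PER1 probe set was thus above, and this LTP3 probe set below, both 300 DD arrays. The green tissue list (4 genes, 6 probe sets) had a summed signal on the log2 scale of 13.31 on 100 DD replicate 1, 12.09 and 11.90 at 300 DD and 9.63 and 10.24 at 500 DD. In neither of these lists nor in the starchy endosperm list did a probe set pass the limma test between 250 and 300 DD.

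By their names, the 92 differed in makeup from the array as a whole. Names starting with TaAffx were 11 of the 92 (12%), against 48.5% of all probe sets and 10.6% of those at least 7 on both 500 DD arrays. Names ending in _a_at, _s_at or _x_at, which mark probes shared between transcripts, were 26 (28.3%), against 20.8% of all. The set was thus close to other probe sets with signal at 500 DD in the first respect.

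The thresholds divide values that run on without a gap. Just inside the ceiling lay TaAffx.106069.1.S1_at with 4.998, Ta.5703.1.S1_a_at with 4.94 and Ta.6016.1.S1_at with 4.93 on a 300 DD array. Just outside lay Ta.19303.1.S1_at, at the ceiling of 5 itself, Ta.5888.2.S1_x_at with 5.07 and Ta.26929.2.S1_a_at with 5.08, all on 300 DD replicate 1, so each of these 6 was decided by a 300 DD array.

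At the floor, TaAffx.58843.1.S1_at with 7.003, Ta.9361.2.S1_x_at with 7.06 and Ta.104.1.S1_at with 7.07 lay just inside on their lower 500 DD array. TaAffx.35126.1.A1_at with 6.999, Ta.27970.1.A1_at with 6.98 and Ta.7999.2.S1_a_at with 6.93 lay just outside. TaAffx.58843.1.S1_at was also among the highest before 500 DD, with 4.79 on 100 DD replicate 1, and read 7.003 and 7.03 at 500 DD.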

How the data were processed

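Total RNA from wheat grain was hybridised to 10 Affymetrix wheat arrays, 2 per stage. The values are log2 signals in a single table that the authors deposited after GCRMA normalization (version: not given in the sources used here). Each of its 10 columns was read. Affymetrix controls (111 probe sets) were left out, and 64 reporter probe sets stayed in the counts. The platform annotation gave 1 gene symbol to 1273 probe sets, several to 0 and none to 59906, and 1272 of the symbols matched the RefSeq gene table of IWGSC CS RefSeq v2.1. No sequence was printed.

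The 300 DD minus 250 DD contrast was fitted with limma 3.58.1 in R 4.3.3, with a mean per stage and without the array labelled 100 DD replicate 2, on probe sets at 4 or more on at least 2 of 9 arrays. P-values were Benjamini-Hochberg adjusted. The number of arrays limits the precision. The fit was tested on simulated data. The deviations of replicate 1 correlated between stages from 200 to 500 DD at 0.249 to 0.718. By label, replicate 1 was the earlier sampling at each of these stages, so a shared harvest and a shared shift in sampling time cannot be told apart. Fits with the replicate number as a block were run.

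The thresholds, the genes left out and the marker lists were chosen with earlier results of these data known. Probe sets were named where they had a gene symbol, were among the 10 highest at 500 DD, the 4 furthest apart at 500 DD in each direction, the 5 of widest margin at 300 DD, the 3 furthest in each direction on the array labelled 100 DD replicate 2, or the 3 nearest a threshold on each side. Alternatives were other thresholds, filters, normalization, prior, adjustment and contrast, and leaving out each array. Coordinates were not used here.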

Additional observations from a re-analysis of the deposited data

Results flagged for a closer look

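The 92 probe sets had a median log2 value of 8.51 on the array labelled 100 DD replicate 2, against 2.64 on 100 DD replicate 1. Neither the choice nor the main limma test used the array labelled 100 DD replicate 2. This stands out because the array carries the label of the youngest stage and the set was chosen as low before 500 DD. Of the 120 probe sets that were under 5 on the 7 other arrays before 500 DD and at 7 or more on this one, 89 were of the set, 6 were the Em, EM and Rab15 probe sets left out of it, and 25 were others.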

How the results depend on the processing

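The set held 92 probe sets, 52 with a ceiling of 4, 167 with a ceiling of 6, 153 with a floor of 6, 48 with a floor of 8, and 0 when the array labelled 100 DD replicate 2 was held to the ceiling. It held 92 to 115 when each array was left out in turn. All 92 were kept by construction, since leaving out an array only removes a condition. After quantile normalization the set held 93, 91 of them shared. A floor of 8 moved the median at 500 DD from 8.29 to 9.42 and that on the array labelled 100 DD replicate 2 from 8.51 to 9.45, by construction. With a ceiling of 4, 0 probe sets had a margin of 1 on both 300 DD arrays, since such a ceiling leaves little room for one. The median difference between the 500 DD arrays stayed between -0.25 and -0.15.

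In the limma test of 300 against 250 DD, 1 probe set of the set was higher, and 0 were with all 10 arrays, with no filter, with a trended robust prior or with Bonferroni adjustment, 0 to 1 when each array was left out, and 4 against the mean of 200 and 250 DD. Over all probe sets, 26 changed, 3 with all 10 arrays, 4 with no filter, 5 with Bonferroni adjustment, 154 against the mean of 200 and 250 DD, and 0 to 26 when each array was left out. The cause was not tested. Over these alternatives the limma adjusted p of Ta.13389.1.S1_at ran from 0.0134 to 1, with its difference at 2.30 to 2.55. With the replicate block, fixed or random, the count in the set stayed at 1. That over all probe sets was 39 or 32, and the block changed no call in the set. Where a 500 DD array was left out, 40 of the 92 entered the fit. Without an independent array per harvest, differences between the 500 DD arrays have no error, and values under about 4 lie near background.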
